A study of Homo sapiens with 4 samples.

Results

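The 9 genes described here, SRPRB, WASL, CREB3, ZNF721, SVIL, ATN1, API5, PRPF8 and OPCML, differed in which of their transcripts held their reads between human neurons with and without a knockdown of TDP-43. They were chosen on the measured transcript shares: in each, a transcript's share of the gene's transcript reads moved by at least 10 percentage points in the same direction in both pairs of libraries that differed by the knockdown. They are 9 of 5521 genes with at least 2 detected transcripts and 20 or more transcript reads per library on average, and 9 of 77 such genes that also passed Fisher's exact test in both pairs. Because the knockdown contrast chose them, their knockdown values are given as a description with no test, and tests are reported for azacytidine alone. The choice used the shares in all 4 libraries, so the azacytidine tests on shares are not free of it.

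Full-length complementary DNA was sequenced on the PacBio platform (Iso-Seq) from cortical neurons made from the human induced pluripotent stem cell line KOLF2.1J, a widely used reference line. There were 4 groups with 1 library each, so the differences below lack replicates and every p-value compares the reads of 2 libraries, not the conditions. All 4 libraries came from cells with a doxycycline-inducible NGN2 transgene, which drives neuronal differentiation at 2 µg/mL doxycycline, and a constitutive dCas9-BFP-KRAB construct, the repressor used in CRISPR interference (CRISPRi). The control carried a non-targeting guide RNA, and the knockdown (TDP-43 CRISPRi) carried a guide against the gene of TDP-43. The azacytidine library had the non-targeting guide and 72 hours of 5 µM 5-azacytidine, which blocks the copying of DNA methylation, and the combined library had the TDP-43 guide and the same drug treatment. Guides were delivered by lentivirus and the cells were selected as pools before differentiation. The labels do not say whether both knockdown libraries came from 1 pool, so a property of a shared pool and the knockdown cannot be told apart.

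TDP-43, encoded by TARDBP, is a nuclear RNA-binding protein that prefers UG-rich RNA and controls which exons, splice sites and transcript ends are used. When it is lost from the nucleus, as in neurons of patients with amyotrophic lateral sclerosis or frontotemporal dementia, sequences that are normally skipped appear in messenger RNA. A transcript switch can alter the protein, through the coding sequence, or leave it as it was and alter the untranslated ends that govern translation and stability.

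The libraries held between 466337 and 767621 reads assigned to genes, and between 288441 and 448742 of these were assigned to transcripts. TARDBP had 104 reads in the control, 72 in the knockdown, 73 in the azacytidine and 43 in the combined library, which is 54.8% and 57.7% of the level in the library without the guide after scaling to library size. All 10 neuronal markers examined, such as MAP2 and TUBB3, were detected in every library, and they summed to between 2069 and 2827 CPM, which is reads scaled to effective library size. Single markers in this sum went opposite ways. In the order control, knockdown, azacytidine and combined, MAP2 had 540, 761, 319 and 162 reads and RBFOX3 had 35, 39, 90 and 131. Markers of neural progenitors summed on that scale to 1208 and 1009 in the control and knockdown libraries and to 175 and 131 in the azacytidine and combined libraries. Markers of mesenchymal cells summed to 116, 98.8, 16.7 and 4.08 in the same order, and those of astrocytes to 53.0, 44.6, 2.08 and 0. Markers of pluripotent stem cells summed to 318, 326, 239 and 267. Of these, LIN28A had 129, 200, 99 and 121 reads, while POU5F1 had 2, 0, 2 and 0.

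The 9 genes have 77 annotated transcripts, of which 38 had reads and 23 had at least 10 reads in total and so could be compared. Of those 23, 9 had a higher share in both knockdown libraries by at least 10 points and 9 had a lower one, against 8.8% of all 15192 transcripts that moved that far in either direction. Over all genes, 17.7% had a transcript that moved that far in the same direction in both pairs, and 1.39% also passed Fisher's exact test at a Benjamini-Hochberg adjusted p under 0.05 in both. All 9 genes also met the stricter rule, but they were chosen on these same moves, so these shares say nothing further about them. The rule that chose them does not say how 9 were taken from the genes that met it. Nearest above the limit of 10 points among their transcripts were ENST00000505900.1 of ZNF721, at -13.4 and -31.8 points without and with azacytidine, and ENST00000541867.6 of OPCML, at -38.0 and -52.4 points. Nearest below it were ENST00000674475.1 of SVIL, at -5.88 and -82.4 points, and ENST00000455725.6 of API5, at -3.41 and -2.05 points.

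In what follows, the transcript with the higher share in both knockdown libraries is called knockdown-high, and its counterpart with the lower share knockdown-low. Values are in the order control, knockdown, azacytidine and combined, so the knockdown libraries are the second and the last of each series. Most values are estimated reads, which split a read between all the transcripts it could have come from. Shares are of the reads assigned to transcripts, which were only part of a gene's reads and differed by library. That part was 100%, 65.8%, 100% and 100% in WASL, and 44.2%, 61.1%, 73.9% and 65.5% in SVIL. In OPCML it was 88.5%, 92.0%, 91.7% and 53.1%, and in API5 it was more even, at 56.5%, 55.5%, 54.6% and 53.7%. Its effect on the shares was not tested. Reads that fit 1 transcript alone are called unique reads and are given beside the estimates, because few reads separated the transcripts of these genes. Over all compared transcripts the median share of unique among estimated reads was 54.4%, and over the 18 leading transcripts of the 9 genes it was 7.88%.

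**Figure D1:**
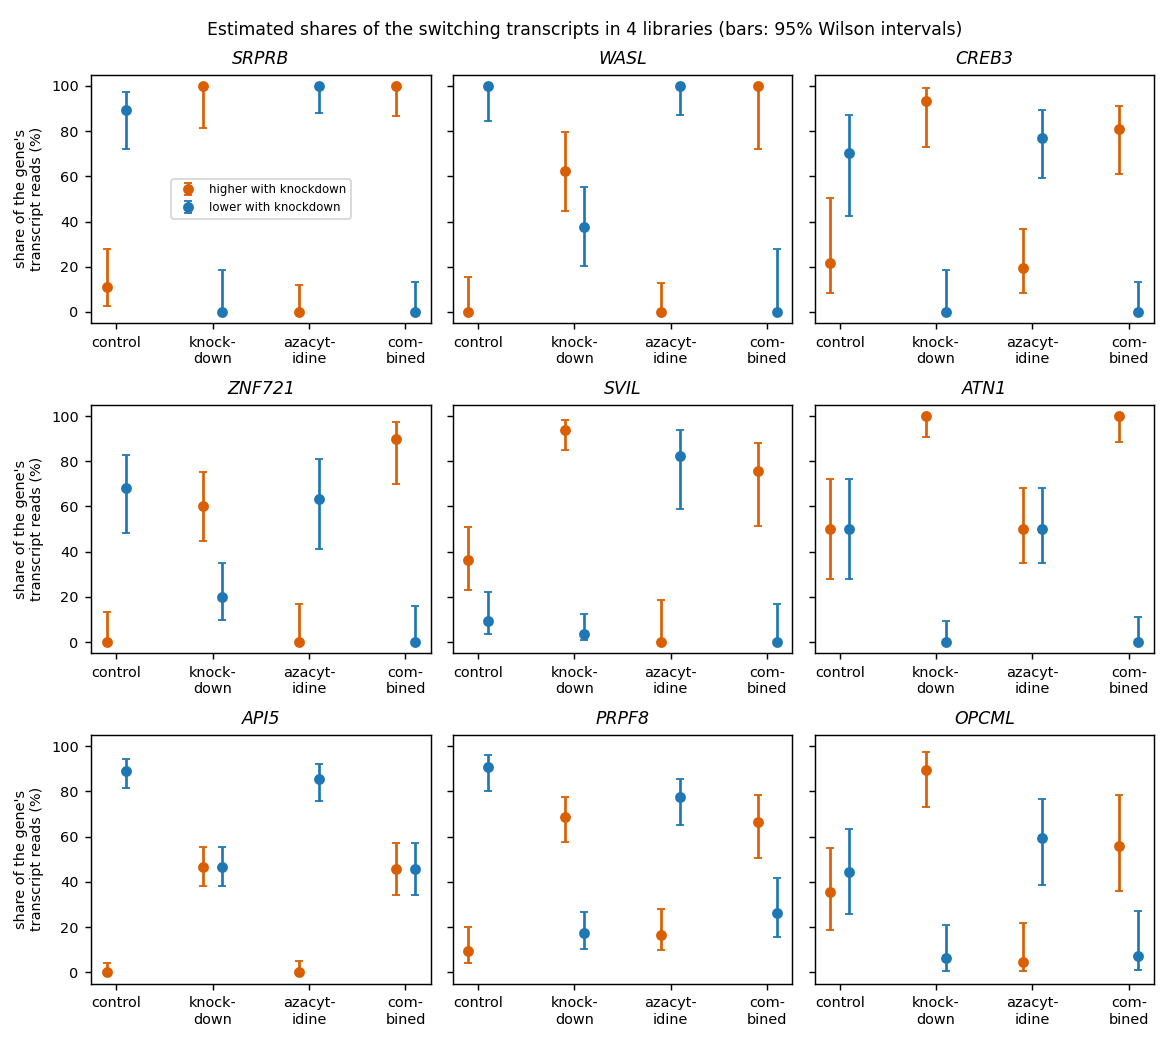
Share of the gene's estimated transcript reads (%, vertical axis) held by the knockdown-high (orange) and the knockdown-low (blue) transcript in each of the 4 libraries, with 95% Wilson intervals as bars. The orange points lie higher in the knockdown and combined libraries than in the control and azacytidine libraries in all 9 genes, which is the property they were chosen for.

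SRPRB (ENSG00000144867.13, chromosome 3, plus strand) encodes the beta subunit of the receptor for the signal recognition particle, which anchors that receptor in the endoplasmic reticulum membrane so that secretory proteins can be delivered there. Its knockdown-high transcript ENST00000678299.1 had 2 of 22 reads in the control, 17 of 17 in the knockdown, 0 of 28 in the azacytidine and 25 of 25 in the combined library. The knockdown-low transcript ENST00000466490.7 held all the others, at 20, 0, 28 and 0 reads. The exchange was thus nearly complete in both pairs. As shares, the knockdown-high transcript went from 10.8% (95% Wilson interval 2.53 to 27.8) to 100% (81.6 to 100) without azacytidine. With azacytidine it went from 0, with a limit of 10.7% for a count of 0, to 100% (86.7 to 100). Here and below, such intervals and limits leave out the error of dividing shared reads between transcripts.

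Both SRPRB transcripts end at the same base and share 6 introns, and they differ in where they begin. The knockdown-low transcript starts at 133784023, 21.8 kb upstream, with a noncoding first exon of 122 bases that overlaps an exon of the neighbouring gene TF on the same strand, and an intron of 21531 bases leads to its second exon. The knockdown-high transcript starts at 133805815, inside that second exon, and 34 bases before the first coding base of the knockdown-low transcript. It thus contains that start codon, and its own coding sequence was not compared. Unique reads were assigned to the upstream-start transcript alone, at 13, 0, 19 and 0, and the other transcript has 0 introns of its own. Full-length reads were assigned to the downstream-start transcript alone, at 0, 11, 0 and 14. Unique reads of the upstream start were thus found in the libraries without the TDP-43 guide, and full-length reads of the downstream start in those with it.

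The end of the long SRPRB intron is shown because it is also the promoter region of the downstream start and holds a TG repeat of the kind TDP-43 binds as RNA. The stretch is chr3:133805565-133805675 of the plus strand, from the RefSeq promoter window (GRCh38). Capitals mark the repeat TGTGTGTG, which lies 40 bases before the second exon of the upstream-start transcript, and the AG that ends the intron.
SRPRB intron end: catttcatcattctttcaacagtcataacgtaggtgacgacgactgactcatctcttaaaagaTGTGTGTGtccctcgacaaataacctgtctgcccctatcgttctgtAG
The RefSeq start of the window is the first base of the knockdown-high transcript. The letters TGTGTG or their reverse complement CACACA occur in 17.2% of 35116 whole RefSeq promoter windows, which are longer than the stretch shown. That share is for a shorter repeat on either strand and is not matched to the marked TGTGTGTG. The match is a description and not a site.

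CREB3 (ENSG00000107175.12, chromosome 9, plus strand) encodes a transcription factor held in the membrane of the endoplasmic reticulum and released by proteolysis in the Golgi. The unannotated transcript BambuTx5487 had 3 of 13, 16 of 17, 5 of 27 and 20 of 25 reads. Its share was 21.6% (8.18 to 50.3) and 19.3% (8.18 to 36.7) without the guide against TDP-43, and 93.3% (73.0 to 99.0) and 80.9% (60.9 to 91.1) with it. The knockdown-low transcript ENST00000353704.3 had 9, 0, 21 and 0 reads, and a shorter transcript, ENST00000486056.1, had 1, 1, 1 and 5. The annotated full-length CREB3 transcript therefore had 0 estimated reads in both knockdown libraries.

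BambuTx5487 runs 1888 bases past the end of ENST00000353704.3. Its exon 9 is extended to 35738367, a further intron of 252 bases is removed, and a last exon covers 35738620 to 35738887. Both added pieces lie beyond the coding sequence and overlap exons of GBA2, a gene on the opposite strand, so reads of CREB3 and GBA2 cannot be told apart there unless strand was used in the counting, which is not given in the sources used here. The first exon also begins 346 bases further upstream. The tables disagreed on this gene: unique reads of BambuTx5487 were 2, 12, 4 and 15, whereas its full-length reads were 2, 1, 3 and 1, and full-length reads of ENST00000353704.3 were 6, 0, 17 and 0. The annotated transcript has 0 introns of its own and had 0 unique reads in every library.

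WASL (ENSG00000106299.8, chromosome 7, minus strand) encodes N-WASP, which activates the Arp2/3 complex to nucleate branched actin filaments. The unannotated transcript BambuTx9213 had 0 of 21, 16 of 25, 0 of 26 and 10 of 10 reads, and ENST00000223023.5 had 21, 9, 26 and 0. The knockdown-high share was 62.5% (44.5 to 79.8) and 100% (72.2 to 100) with the TDP-43 guide. Without it, the limits for a count of 0 are 14.3% and 11.5%. Unique reads went the same way, at 0, 5, 0 and 1 for BambuTx9213 and 7, 3, 5 and 0 for ENST00000223023.5. Full-length reads were few, at 0, 2, 0 and 1 against 1, 0, 1 and 0.

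The transcripts of WASL differ by 1 exon, the exon 10 of ENST00000223023.5, which BambuTx9213 skips. It is entirely coding, and its 109 bases are not a multiple of 3, so that skipping it shifts the reading frame of what follows. The starts of the transcripts lie 23 bases apart and their ends 8. The exon is at chr7:123689042-123689150 (hg38, sequence from the GENCODE 29 transcript), printed 5′ to 3′ on the minus strand to show what the knockdown-high transcript lacks. Capitals mark the only TGTG in it.
WASL exon 10: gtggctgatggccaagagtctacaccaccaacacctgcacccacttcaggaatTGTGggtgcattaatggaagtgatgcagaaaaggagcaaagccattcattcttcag
The letters TGTG occur in 44.5% of the 640 internal exons of this length in the genes compared, and TGTGTG, which the exon lacks, in 4.69%.

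SVIL (ENSG00000197321.16, chromosome 10, minus strand) encodes supervillin, a large protein of the villin and gelsolin family that links actin filaments to the cell membrane. ENST00000375400.7 had 15 of 42, 52 of 55, 0 of 17 and 14 of 19 reads. Its share was 36.5% (23.0 to 50.8) in the control and 93.9% (85.1 to 98.1) in the knockdown, and 0, with a limit of 17.6%, in the azacytidine and 75.5% (51.2 to 88.2) in the combined library. Its counterpart differed between backgrounds: in the control it was mainly ENST00000355867.9, with 19, 0, 0 and 2 reads, and in the azacytidine library ENST00000674475.1, with 4, 2, 14 and 0. The short ENST00000464726.2 had 3, 1, 2 and 2 reads. The 3 longer transcripts begin at 3 different first exons, at 29735804, 29634971 and 29736959.

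What the counterparts of ENST00000375400.7 share is a set of 3 coding exons that it lacks, with lengths of 81, 171 and 96 bases, each a multiple of 3. They are not 1 run: in ENST00000674475.1 the 81- and 171-base exons are neighbours, and 3 exons that ENST00000375400.7 also contains lie between them and the 96-base exon. Transcripts with the 81-base exon held 23 of 42, 2 of 55, 14 of 17 and 2 of 19 reads, or 53.7%, 3.43%, 82.4% and 7.91%. By this sum, which runs over transcripts with different first exons, both knockdown libraries were low. The sum still adds estimates made per transcript, so the first exon can enter through the division of shared reads. Unique reads for the exon were 2, 1, 1 and 0, so the estimates rest on the division of shared reads. The first and last of the 3 are shown, 5′ to 3′ on the minus strand, as sequence missing from the knockdown-high transcript. They are at chr10:29535989-29536069 and chr10:29526961-29527056 (hg38, sequences from a GENCODE 29 transcript), with TGTG in capitals.
SVIL first skipped exon: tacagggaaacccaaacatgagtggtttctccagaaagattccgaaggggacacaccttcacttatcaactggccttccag
SVIL last skipped exon: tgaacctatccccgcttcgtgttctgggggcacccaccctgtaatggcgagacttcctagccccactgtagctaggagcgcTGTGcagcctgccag
The antisense gene SVIL-AS1 spans this part of the locus.

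ZNF721 (ENSG00000182903.16, chromosome 4, minus strand) encodes a member of the large family of zinc finger proteins, most of which bind DNA to repress transcription. ENST00000511833.3 had 0 of 25, 22 of 36, 0 of 19 and 18 of 20 reads. With the guide against TDP-43 these are shares of 60.4% (44.9 to 75.2) and 90.0% (69.9 to 97.2), and without it the limits for a count of 0 are 12.0% and 15.8%. The knockdown-low transcript ENST00000338977.5 had 17, 7, 12 and 0 reads. A pair of transcripts that start at 474167 and 474051 had 5, 2, 7 and 1 reads for ENST00000505900.1, or 20%, 6.58%, 36.8% and 5%, and 3, 2, 0 and 1 for ENST00000515578.5.

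The knockdown-high transcript of ZNF721 has an exon 2 of 127 bases that ENST00000338977.5 skips, with an end in common and starts 54 bases apart. Summed over the 5 transcripts with that exon, reads were 8 of 25, 29 of 36, 7 of 19 and 20 of 20, or 32.0%, 79.9%, 36.8% and 100%. By these estimates the exon was in a minority of the reads without the guide and in most with it. Full-length reads did not show this: transcripts with the exon had 6, 3.37, 6 and 4 of them, and the skipping transcript 1, 1, 1 and 0. Unique reads were 2, 3, 0 and 6 with the exon and 1, 1, 1 and 0 without it. In GENCODE 29 the last 34 bases of the exon are coding and begin with the start codon of the transcript, so in that annotation the protein of the knockdown-high transcript begins within this exon. That piece is at chr4:472575-472608 (hg38), shown 5′ to 3′ on the minus strand with the start codon in capitals.
ZNF721 exon 2, coding part: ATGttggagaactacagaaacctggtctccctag
Unique reads of the knockdown-high transcript were 0, 3, 0 and 5. Its full-length reads were 0, 1, 0 and 2. The knockdown-low transcript had 1, 1, 1 and 0 in each of those tables, too few to show a fall between the control and the knockdown.

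ATN1 (ENSG00000111676.15, chromosome 12, plus strand) encodes atrophin-1, a transcriptional corepressor whose polyglutamine expansion causes dentatorubral-pallidoluysian atrophy. ENST00000396684.3 had 8 of 16, 38 of 38, 16 of 31 and 30 of 30 reads, and ENST00000356654.8 had 8, 0, 16 and 0. The knockdown-high share was 50% (28.0 to 72.0) and 50% (34.8 to 68.0) without the TDP-43 guide and 100% (90.8 to 100 and 88.6 to 100) with it. The transcripts begin 3496 bases apart, with first exons at 6924463 to 6924537 (knockdown-low) and 6927959 to 6928384 (knockdown-high). Both first exons are noncoding, and the coding sequence of 3570 bases is the same.

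In the libraries without the guide the ATN1 estimates were equal to within 0.01 reads. Only 5 of the 115 reads of both transcripts were unique, namely 0, 1, 1 and 2 for the knockdown-high and 0, 0, 1 and 0 for the knockdown-low transcript. Such equal estimates of at least 5 reads each occurred for a pair of transcripts in at least 1 library in 724 of 5521 genes (13.1%), in 28 of the 77 genes chosen by the stricter rule (36.4%) and in 2 of the 9 genes, ATN1 and API5. How far the division of shared reads sets the shares of ATN1 was not tested.

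PRPF8 (ENSG00000174231.18, chromosome 17, minus strand) encodes the largest protein of the spliceosome core, a component of the U5 small nuclear ribonucleoprotein, and mutations in it cause retinitis pigmentosa. ENST00000304992.11 had 5 of 54, 56 of 82, 11 of 65 and 27 of 41 reads. Its share was 9.38% (4.02 to 19.9) in the control, 68.9% (57.6 to 77.4) in the knockdown, 16.6% (9.72 to 27.8) in the azacytidine and 66.4% (50.5 to 78.4) in the combined library. ENST00000572621.5 had 49, 14, 50 and 11 reads. ENST00000573725.2 had 0, 9, 1 and 0 reads, 93.7% of them unique.

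The knockdown-low transcript of PRPF8 retains the first intron, 197 bases of the 5′ untranslated region, and the knockdown-high transcript removes it, with the same coding sequence of 7005 bases. Summed over the 5 transcripts that remove the intron, reads were 5, 68, 14 and 28, or 9.38%, 82.7%, 21.0% and 69.0% of the gene's. Unique reads of these transcripts were 2, 14, 7 and 5. For the leading pair alone, unique reads were 2, 3, 5 and 4 for the spliced and 0, 4, 0 and 1 for the unspliced transcript, which does not show the switch. The ends of the intron are shown because their letters are those of an ordinary intron, with GT at the start and AG at the end in capitals. They are at chr17:1684765-1684779 and chr17:1684583-1684597 (hg38, from the GENCODE 29 transcript that retains the intron), 5′ to 3′ on the minus strand.
PRPF8 intron 1, first bases: GTgcgtggcaggcgt
PRPF8 intron 1, last bases: cccgccgctccccAG
Among the 8 differing sequences read from GENCODE 29, which leave out the SRPRB intron shown above, this intron was the only one that holds TGTGTG, on the transcript's strand and 1 time. Its GC content was 69.0%, and the median of 201 internal exons of that length was 49.2%. Of those exons 4.48% hold TGTGTG and 60.7% hold TGTG. The antisense gene ENSG00000277597 overlaps it.

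API5 (ENSG00000166181.13, chromosome 11, plus strand) encodes an inhibitor of apoptosis. ENST00000378852.7 had 0 of 87, 59 of 126, 0 of 71 and 30 of 66 estimated reads, and 0 unique reads in every library. Its share was 46.7% (38.3 to 55.5) and 45.7% (34.0 to 57.4) with the guide. Without it, the limits for a count of 0 are 3.45% and 4.23%. They do not bound the share, because reads divided between the transcripts could belong to it. ENST00000531273.6 had 78, 59, 61 and 30 reads and remained as frequent as the other in the knockdown libraries. There the estimates of the pair were equal to within 0.01 reads. ENST00000455725.6 had 7, 6, 8 and 6 reads.

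The transcripts of API5 differ by the 5 bases between a pair of splice acceptors of the last exon, at 43342428 (knockdown-low) and 43342433 (knockdown-high), and their coding lengths are 1572 and 1512 bases. Summed over every transcript with the downstream acceptor, reads were 1, 62, 1 and 30, of which 1, 2, 1 and 0 were unique, and with the upstream acceptor 84, 64, 68 and 36, of which 8, 4, 22 and 5 were unique. Unique reads therefore do not show the switch that the estimates show. Full-length reads of the knockdown-high transcript, which are also divided, were 0, 9, 0 and 4.5, and those of the knockdown-low transcript 13, 8, 5 and 2. The sequence at the acceptors is chr11:43342428-43342457 (hg38, GENCODE 29), shown to make clear how small the difference is, with the bases that only the knockdown-low transcript holds in capitals.
API5 last exon, first bases: AGCAGagaggagccttcaggggaagtagag
The extra bases themselves end in AG, the letters of an acceptor.

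OPCML (ENSG00000183715.15, chromosome 11, minus strand) encodes a cell adhesion protein of the IgLON family, anchored to the neuronal surface by a lipid. ENST00000331898.11 had 8 of 23, 21 of 23, 1 of 22 and 10 of 17 reads, which are shares of 35.7% (18.8 to 55.1), 89.4% (73.2 to 97.6), 4.78% (0.807 to 21.8) and 56.1% (36 to 78.4). ENST00000541867.6 had 10, 1, 13 and 1 reads, and ENST00000524381.6, from a start far upstream at 133532501, had 5, 0, 8 and 6. Unique reads of the knockdown-low transcript were 8, 1, 12 and 1 and low in the same libraries as its estimates, while the knockdown-high transcript had 0 in every library. None of the OPCML transcripts had a full-length read.

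The knockdown-low transcript of OPCML contains an exon 7 of 27 coding bases, a multiple of 3, that both other transcripts lack, and its start is 165 bases upstream of the knockdown-high start. In GENCODE 29 the coding lengths are 1062 and 1035 bases, and the first exon holds 162 and 167 of them. The knockdown-low transcript has other introns in that annotation than in the one used for counting. Its coding length there may therefore not apply to the transcript counted here. This microexon is at chr11:132435159-132435185 (hg38, GENCODE 29), 5′ to 3′ on the minus strand, and holds no TGTG.
OPCML exon 7: aaataagcccctcatcagcagtggcag
Exons of this length with TGTG are 6.06% of 132.

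**Figure D2:**
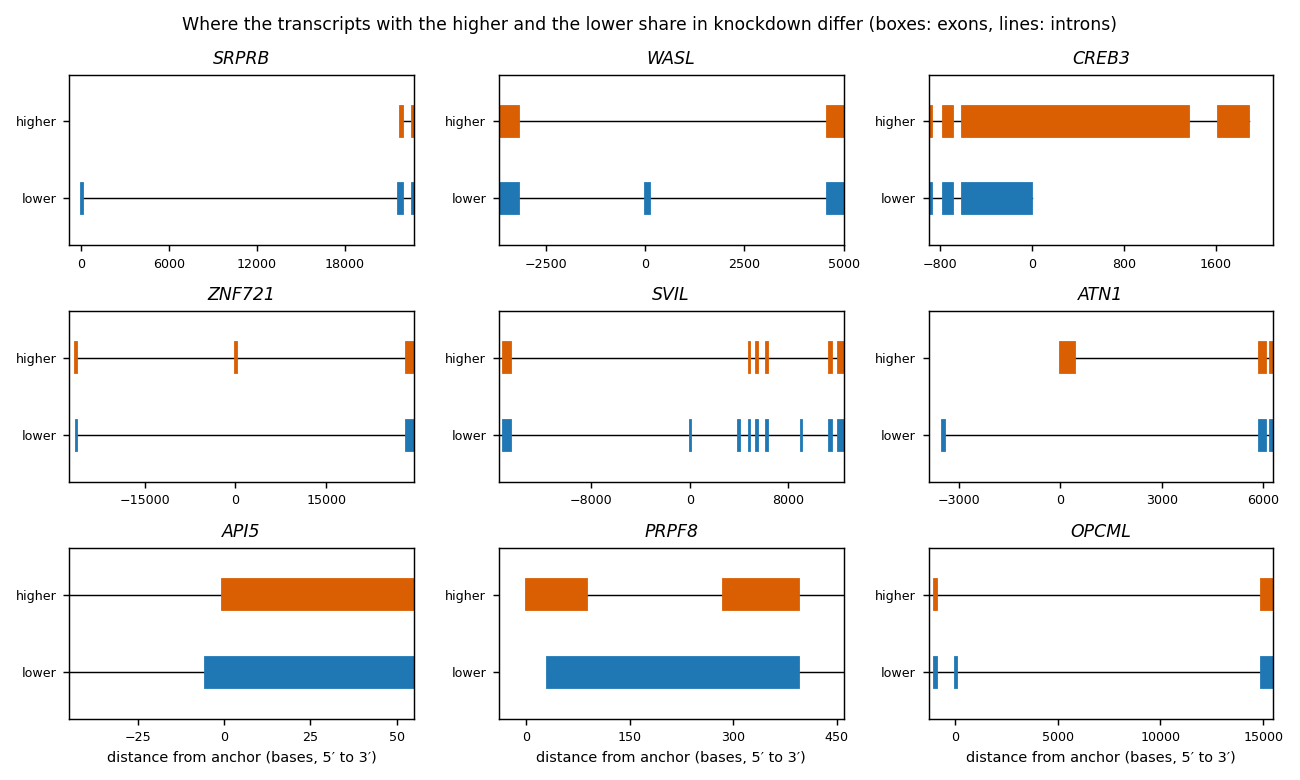
Exons (boxes) and introns (lines) of the knockdown-high (orange) and knockdown-low (blue) transcript of each gene around the place where they differ, drawn to scale 5′ to 3′ in bases from an anchor, with a different horizontal scale in each panel. The anchor is the knockdown-low start (SRPRB), the knockdown-high start (ATN1, PRPF8), the knockdown-low end (CREB3), the first base of the exon that differs (WASL, ZNF721, SVIL, OPCML) or the knockdown-high acceptor (API5).

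Across the genes the differing pieces were of several kinds. SRPRB and ATN1 differed in the first exon, and PRPF8 in a retained intron before the coding sequence. WASL, SVIL and OPCML had coding exons missing from the knockdown-high transcript, and in ZNF721 the exon was present in it. API5 differed in a splice acceptor and CREB3 in the end of the transcript. A start or an end differed by more than 50 bases in 6 of the 9 genes. Of 8 differing sequences that could be read from GENCODE 29 (in WASL, ZNF721, OPCML, PRPF8, SVIL and ATN1), 1 held TGTGTG and 5 held TGTG on the transcript's strand. For the 5, TGTG occurs in 36.9% to 60.7% of internal exons of the same length, and for the others in 6.06% to 31.6%. For all 8, TGTGTG occurs in 0.758% to 4.81% of such exons. The counts are a description with no test. Introns beside the exons were not searched, because no genome sequence was used here.

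Unique and full-length reads gave these switches uneven cover. Unique reads were 44.6% of the estimated reads of the leading pair in CREB3, 34.8% in SRPRB, 33.7% in OPCML and 25.6% in WASL. They were 14.5% in ZNF721, 8.49% in PRPF8, 5.93% in SVIL, 5.37% in API5 and 4.35% in ATN1. In the tables of unique and of full-length reads, 0 of the 9 genes reached a mean of 20 reads, so the choice of the genes rests on the estimates. The low unique share was shared by the other chosen transcripts: the median over the 110 transcripts that passed the stricter rule was 6.58%, and 34 of them (30.9%) had 0 unique reads, against 1692 (11.1%) of all those compared.

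**Figure D3:**
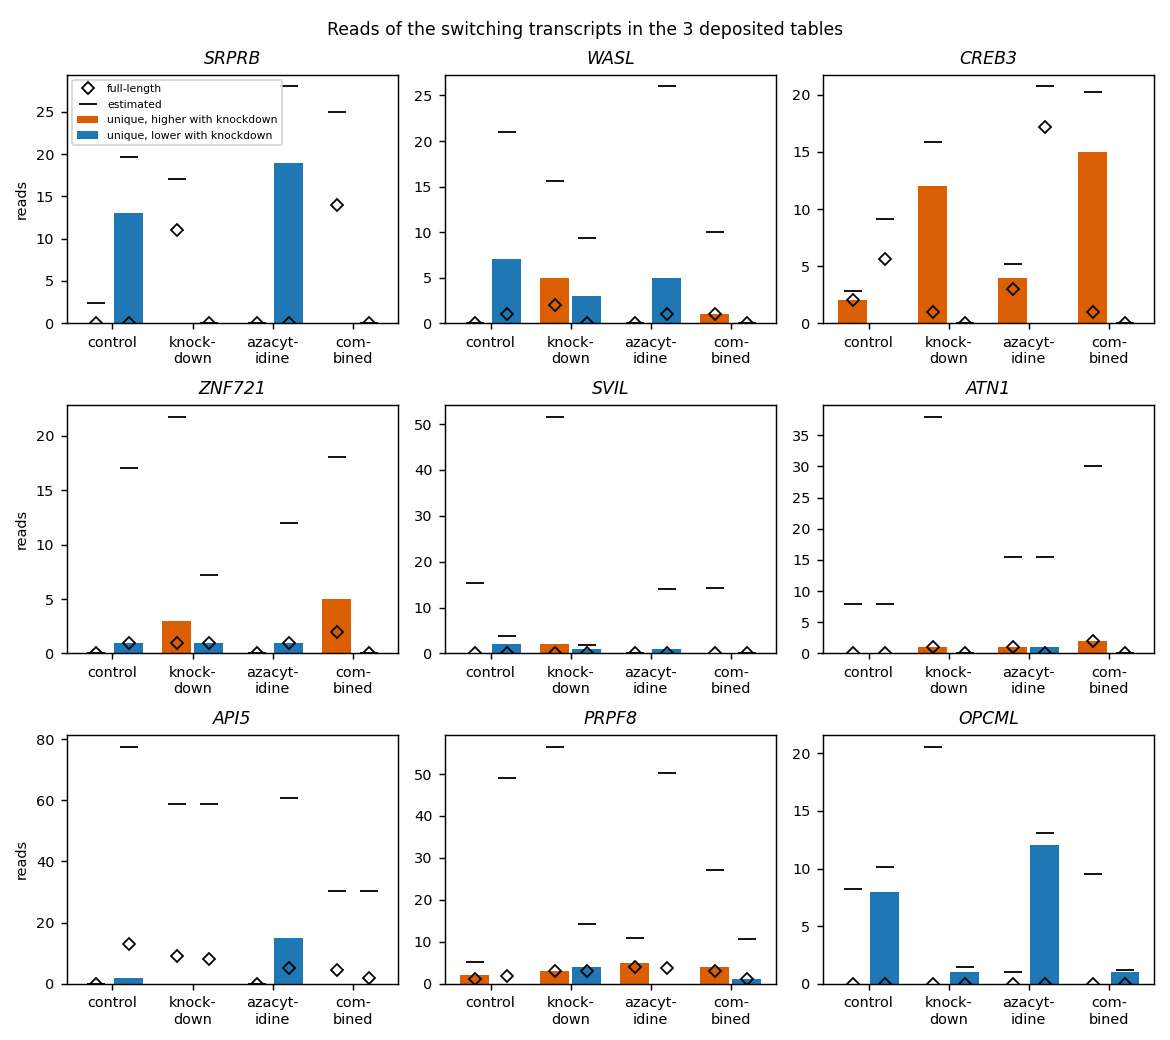
Reads per library (vertical axis) of the knockdown-high (orange, left) and knockdown-low (blue, right) transcript in the 3 deposited transcript tables, with bars for unique, dashes for estimated and diamonds for full-length reads. The bars are far below the dashes in SVIL, ATN1, API5 and PRPF8, and in SRPRB the unique reads are confined to the blue bars of the control and azacytidine libraries, at 13 and 19.

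Whether azacytidine moved the same transcripts was tested on the transcript's reads among those of its gene (Fisher's exact test, two-sided), adjusted over all 15192 transcripts. Between the azacytidine and control libraries, 3 of the 23 transcripts passed at an adjusted p under 0.05 and a change of at least 10 points, all in SVIL, where 5.92% of all transcripts and 11.2% of genes passed. In SVIL the share of ENST00000674475.1 was higher by 73.0 points with azacytidine (Fisher's exact adjusted p = 1.4e-05), and ENST00000355867.9 and ENST00000375400.7 were lower, at -44.4 points (adjusted p = 0.0115) and -36.5 points (adjusted p = 0.0481). The rise of the former was 4 of 42 against 14 of 17 estimated reads but 2 against 1 unique reads. SVIL is also the gene whose total fell with azacytidine, so these shares come from 17 reads.

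Between the combined and knockdown libraries 1 of the 23 transcripts passed, where 7.37% of all transcripts and 13.6% of genes did. This was ENST00000524381.6 of OPCML, at 0 of 23 against 6 of 17 reads, or 36.7 points higher (Fisher's exact adjusted p = 0.0434), with 0 unique reads in both libraries. With 1 of 9 genes called in each comparison, the switching genes were called about as often as all genes. That frequency cannot show how such genes respond to azacytidine. A move in the same direction in both knockdown pairs limits which azacytidine changes the chosen genes could have. The knockdown-high OPCML transcript had a lower share with azacytidine in both pairs, by -30.9 and -33.3 points, and neither passed (Fisher's exact adjusted p = 0.195 and 0.175). The knockdown-high share was higher with azacytidine among the knockdown libraries in WASL, by 37.5 points, and in ZNF721, by 29.6 points, and these did not pass either (Fisher's exact adjusted p = 0.237 and 0.211). For SRPRB, CREB3, ATN1, API5 and PRPF8, the knockdown-high share moved by between -12.4 and 7.20 points, and all Fisher's exact adjusted p-values were at least 0.659.

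**Figure D4:**
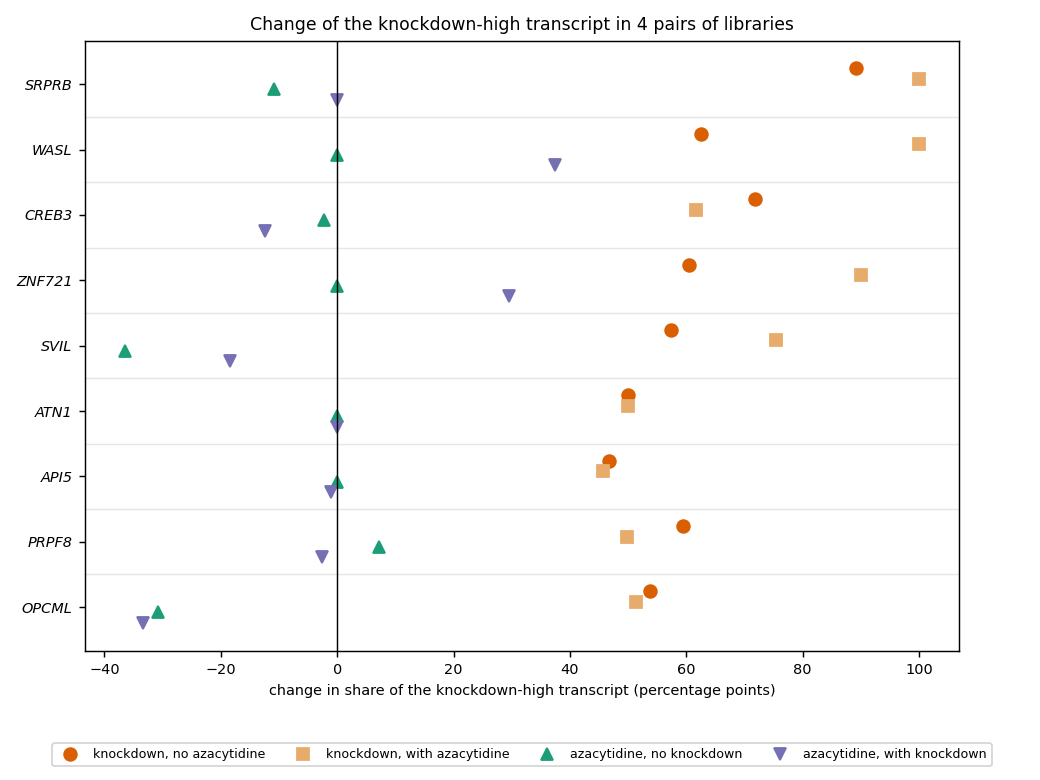
Change in the share of the knockdown-high transcript (percentage points, horizontal axis) in the 9 genes for the pairs of libraries that differ by the knockdown (circles and squares) and those that differ by azacytidine (triangles). The knockdown changes, which chose the genes, lie between 45.7 and 100 points, and the azacytidine changes between -36.5 and 37.5 points.

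The number of reads per gene, summed over transcripts, was examined separately from the shares. With azacytidine 3 of the 9 genes differed from the control (two-sided exact binomial test, adjusted p under 0.05 over 8135 genes, at least 1 on the log2 scale), where 16.5% of all genes did. In the pair with the knockdown 4 differed, where 26.6% of all genes did. The median log2 ratio of all genes was 0.00 in both pairs.

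SVIL was lower in both. It had 95, 90, 23 and 29 reads, and its log2 ratio with azacytidine was -1.74 (95% interval -2.49 to -1.09) without the knockdown and -1.02 (-1.70 to -0.42) with it. The adjusted exact binomial p-values were 2.03e-07 and 0.00194. SVIL was also the only one of the 9 that passed edgeR's additive model over the 4 libraries, with a log2 ratio of -1.39 and an adjusted p of 0.0389, while the same model in DESeq2 gave an adjusted p of 0.264. With sums of transcript reads in place of the gene table its log2 ratios were -0.997 and -0.92, and it was not called. The call in the pair with the knockdown was also lost with scaling to total counts (-0.93) and with a pseudocount of 2 (-0.98). The sums of progenitor and of mesenchymal markers given above were lower in the same libraries, but single markers did not all follow them. PAX6, a progenitor marker, had 290, 313, 3 and 4 reads, and NES, another, had 64, 53, 36 and 42. The azacytidine log2 ratio of NES was -0.54 in the pair lacking the knockdown and 0.26 in the other, and neither was called. None of the mesenchymal markers had enough reads to be tested singly. The part of these cell types in the level of SVIL was not tested.

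CREB3 was higher in both pairs, with 14, 19, 27 and 27 reads and log2 ratios of 1.21 (0.25 to 2.28) and 1.09 (0.20 to 2.03), at adjusted exact binomial p-values of 0.0441 and 0.0274. ATN1 had 20, 44, 37 and 37 reads, and was higher with azacytidine without the knockdown (log2 ratio 1.15, 0.35 to 2.03, adjusted exact p = 0.0161) but not called with it (0.35). SRPRB, at 31, 21, 35 and 32 reads, was called only in the pair with the knockdown (log2 ratio 1.19, 0.36 to 2.07, adjusted exact p = 0.00934). WASL, at 21, 38, 26 and 10 reads, was called lower there (-1.28, -2.50 to -0.30, adjusted exact p = 0.0205). The calls of CREB3, ATN1 and WASL were lost when genes with few reads were included in the adjustment, and whether a gene's ratio differed between the pairs was not tested.

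The remaining totals were 32, 62, 28 and 23 reads for ZNF721, 154, 227, 130 and 123 for API5, 66, 138, 84 and 55 for PRPF8, and 26, 25, 24 and 32 for OPCML. None of these was called with azacytidine. As a description, the log2 ratio for the knockdown had opposite signs in the pairs without and with azacytidine in every gene but SRPRB (-0.89 and -0.16). It was positive first in WASL (0.50 and -1.36), ZNF721 (0.61 and -0.31), PRPF8 (0.72 and -0.64) and ATN1 (0.78 and -0.03). The same held, with smaller values, for API5 (0.22 and -0.11) and CREB3 (0.09 and -0.03). In SVIL (-0.42 and 0.30) and OPCML (-0.39 and 0.38) it was negative first. Fewer cells of a type and fewer reads per cell cannot be told apart in these bulk libraries.

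**Figure D5:**
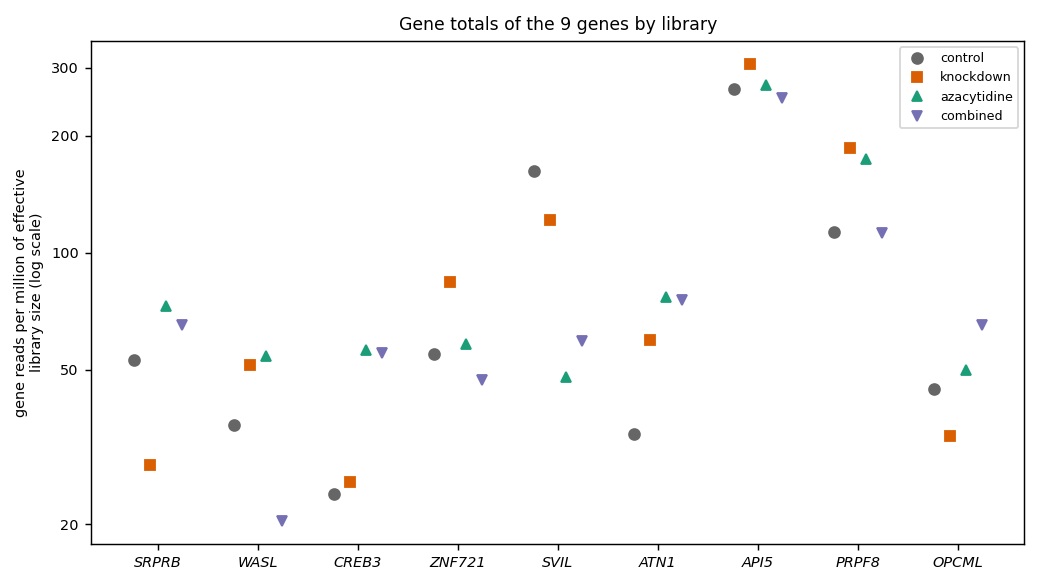
Gene totals in CPM, that is reads scaled to effective library size (vertical axis, log scale), for the 9 genes in the 4 libraries. SVIL is lower in the azacytidine and combined libraries than in the other 2, CREB3 is higher in them, and the order of the libraries differs from gene to gene.

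Partners of the 9 proteins were examined to see whether a switch extended to the complex or pathway. The lists held 77 genes, namely the signal recognition particle and translocon for SRPRB, the Arp2/3 complex for WASL, the CREB3 family, the zinc finger genes beside ZNF721, the gelsolin family for SVIL, partners of atrophin-1 and of API5, the U5 particle for PRPF8, the IgLON family for OPCML, and the cleavage and polyadenylation factors. Of these, 50 could be compared, and 7 had a transcript that moved by at least 10 points in both knockdown pairs (14%, against 17.7% of all genes). Of the 50, 0 passed Fisher's exact test in both at an adjusted p under 0.05, against 1.39% of all genes. With 50 genes, a count of 0 cannot be told from that share. At an unadjusted p under 0.05 in both pairs there was 1, SRP54, against 239 of all 5521 genes. The 7 were SRP9, SRP14, SRP54, ARPC2, CDC42, SNRNP40 and NTM.

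SRP54, SRP14 and SRP9 are described because they belong to the particle that docks on the SRPRB receptor, and were picked after their values were seen. SRP54 binds the signal sequence. Its transcript ENST00000556994.5 had 0, 15, 14 and 21 reads, that is 0%, 56.5%, 47.0% and 80.6% of the gene's, with 0, 7, 9 and 13 unique reads. It differed from the knockdown-high transcripts of the 9 genes in that its share was 0% in the control and already 47.0% with azacytidine alone. SRP14 and SRP9, which form the Alu-binding end of the particle, had a lower share of the main transcript in both pairs. That share was 65.5%, 45.5%, 78.3% and 42.3% for SRP14 and 63.6%, 52.4%, 47.3% and 25.9% for SRP9. None of the 13 cleavage and polyadenylation factors compared had a transcript that moved by 10 points in both pairs.

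Most partner genes tested for gene totals were not called with azacytidine in either pair, and those that were called are named here. Of the 4 other IgLON genes, 1 was called higher and 1 lower without the knockdown, where 16.5% of all genes were called. In the pair with the knockdown 2 were called higher and 2 lower, where 26.6% of all genes were called. IGLON5, at 24, 24, 43 and 42 reads, was higher in both pairs (log2 ratios 1.11 and 1.39, exact binomial adjusted p = 0.0111 and 5.9e-04). LSAMP, at 101, 108, 38 and 31 reads, was lower in both (-1.12 and -1.19, exact adjusted p = 2.6e-04 and 1.0e-04). NEGR1 (36, 90, 36 and 10 reads) was lower and NTM (97, 76, 116 and 109 reads) higher in the pair with the knockdown alone. CREB3L2, which encodes a relative of CREB3, was lower in both pairs at 32, 43, 7 and 11 reads, opposite to CREB3. HDAC1, a deacetylase on the list for atrophin-1, had 48, 48, 16 and 17 reads and was called lower without the knockdown. In the same pair BAIAP2 (32, 40, 54 and 38 reads) was called higher. In the pair with the knockdown alone, FLII, a relative of SVIL, and the cleavage factors SYMPK and CPSF4 were called higher, and ZNF141 and the cleavage factor CSTF3 lower. None of the 8, 9 and 8 genes tested in the signal recognition particle, Arp2/3 and U5 lists was called in either pair. Of the 16 cleavage and polyadenylation factors tested, 0 were called without the knockdown.

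Of the genes outside the 9 with the largest moves in both knockdown pairs, ranked by the smaller change of each, 4 are given here. EPB41L4A had 21 of 24, 9 of 39, 34 of 39 and 2 of 26 reads in its knockdown-low transcript. PHLDA1 had 46 of 46, 22 of 44, 43 of 43 and 19 of 38 reads in its knockdown-low transcript. ZNF704 had 24 of 48, 0 of 60, 15 of 30 and 0 of 32 reads, none of them unique. IL6ST had 33 of 33, 23 of 46, 19 of 19 and 5 of 14 reads. The smaller changes of these 4 were -67.0, -50, -50 and -49.6 points in that order, within the range of the 9 genes, of which SRPRB was first and API5 the 18th of all 77. PHLDA1 and ZNF704 had a share of 50% in a pair of libraries, as ATN1 did.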

How the data were processed

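Each of the 4 groups had 1 library, grouped by its treatment label. Column headers name minimap2 and hg38, the deposited annotation names Bambu, and the submitters' processing notes name hg38; versions are not given in the sources used here. The authors deposited estimated counts per gene and per transcript. Their other transcript tables hold estimated counts for full-length reads and whole counts for uniquely assigned reads. Deposited gene and unique counts were all even (largest distance 0.00031), so all values were divided by 2.

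Transcripts of genes averaging 20 or more transcript reads, with at least 2 transcripts with reads and at least 10 reads for the transcript were compared by two-sided Fisher's exact tests on rounded reads (scipy 1.17.1), adjusted by the Benjamini-Hochberg method over 15192 transcripts. Gene totals were compared by exact binomial tests given effective library sizes, with TMM factors from edgeR 4.0.16 over genes averaging 20 or more reads and a pseudocount of 0.5. Additive models in edgeR and DESeq2 1.42.0 under R 4.3.3 were alternatives. Ratios have 95% Clopper-Pearson intervals. These, Wilson intervals (95%) and the limit of 3 reads for a count of 0 cover counting error only, because PCR copies are not independent molecules. Intervals and limits of shares also leave out the division of shared reads between transcripts. Exon sequences and coding parts came from GENCODE 29 and promoters from RefSeq, with 7 of the 9 genes matched. The scripts were tested on simulated data.

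The 9 genes and the partner and marker lists were chosen with earlier results of these data known. In each gene the transcripts with the largest rise and fall were named, and others with at least 10% of reads. A gene that the rule for the most similar genes would name is not reported here.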

Additional observations from a re-analysis of the deposited data

How the results depend on the processing

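In the tables of unique and of full-length reads 0 of the 9 genes had enough reads to be compared, so the count of genes with a knockdown shift was 0 and 0 there, and the counts of transcripts called with azacytidine were 0 in both pairs. With a mean of at least 50 transcript reads, 2 genes (API5 and PRPF8) could be compared and showed the shift, and the azacytidine counts were 0 and 0. Summed by the end of the transcript, 2 genes (CREB3 and ZNF721) showed a shift and the azacytidine counts were 0 and 0. Summed by the start, 6 did. The transcript called in the pair with the knockdown was lost when genes averaging 10 reads were added (0) and with no minimum per transcript (0), and counts as deposited, not halved, gave 8. They also gave 1 partner gene in place of 0. Azacytidine calls of gene totals, 3 without and 4 with the knockdown, were 1 and 2 with no minimum of reads, 1 and 2 with sums of transcript reads, 1 in edgeR's additive model and 0 in that of DESeq2. With TGTG in place of TGTGTG, 5 of the sequences held the motif.

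Knockdown changes that turned direction were those of BambuTx5487 of CREB3 with azacytidine (-1.05 points on unique reads), of the knockdown-low transcripts of ZNF721 (8.60 points on full-length reads) and OPCML (20 points on unique reads) without azacytidine, and of PRPF8 on unique reads. For PRPF8 these were -83.3 and -12.5 points for the knockdown-high and 22.2 and 12.5 for the knockdown-low transcript. With transcript sums, the log2 ratios with azacytidine of ZNF721 and API5 totals turned to -0.10 and -0.0079. The cause was not tested. The additive models hold the guide as a block, with 1 residual degree of freedom. By replicate number no paired analysis was possible because each group had 1 library. A motif search beside the exons, with windows of 250 or 100 bases, was not run, since no genome sequence was used here. TMM factors over all genes were added after the data were seen, and with them the log2 ratio of CREB3 in the pair with the knockdown was 1.00, short of the threshold of 1.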
